A study of Mus musculus with 4 samples.

Results

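Transthyretin, encoded by Ttr, is a secreted carrier of thyroid hormone and of retinol-binding protein. It was followed here as 1 of 20211 gene symbols listed in all 4 single-nucleus libraries of mouse hippocampus, per library and per cell type. The gene was selected on its own UMI counts per library and cell type, so its levels and ratios are given as a description. Cell types were set by marker genes that do not include Ttr.

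In the brain, transthyretin is made above all by the epithelium of the choroid plexus, which sits in the ventricles beside the hippocampus and secretes the protein into the cerebrospinal fluid. Transcripts in neurons have been described too, at far lower levels, and are hard to tell from choroid plexus RNA that is set free when tissue is broken up, because droplets take up such RNA with the nucleus they hold. The spread over single nuclei therefore matters as much as the mean.

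The study asks what an excess of endocannabinoids in neurons does to cognition. Monoacylglycerol lipase (MAGL, gene Mgll) breaks down the endocannabinoid 2-arachidonoylglycerol. Hippocampal nuclei were taken from wild-type mice, from mice labelled total or global MAGL knockout, and from mice labelled knockout in astrocytes or in neurons. Each genotype is 1 library. The strain, the age, the number of animals pooled, the deleted exons and the driver of the cell type-specific deletions are not given in the labels. With 1 library a genotype there is no replicate check and no test. Every interval below is an exact 95% interval that covers counting error only (Poisson for levels, Clopper-Pearson for shares, conditional binomial for ratios). Where a share is 0, the limit printed is instead that of 3 counts in the total, and differences between libraries cannot be told apart from differences between the dissections or preparations.

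The libraries held 9369 (wild type), 31243 (labelled total knockout), 10731 (labelled astrocyte knockout) and 8945 barcodes (labelled neuron knockout), with 89884297, 193307038, 89875862 and 81623644 UMIs, where a UMI stands for 1 captured RNA molecule. Doublets, droplets with 2 nuclei, were called for 3.55%, 23.5%, 5.68% and 1.72% of barcodes in the same order, and 8968, 23625, 10044 and 8682 nuclei were kept. Pairs of libraries shared between 108 and 466 barcode sequences. In the library labelled total knockout no excitatory or inhibitory nucleus was called female, while the others held nuclei of both sexes. Mgll itself stood at 101, 78.2, 101 and 106 CPM (UMIs of a gene per 1000000 UMIs of the summed nuclei) in excitatory neurons in the same order. Since the deleted part of the gene is not given, these counts say nothing for or against the deletions, and each library is named below by its label.

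Ttr lies on the plus strand of chromosome 18 (GENCODE M21 annotation of mm10, the build in the submitters' processing notes). Its annotated transcript, Ttr-201, is protein-coding with 4 exons. The gene overlaps 0 others in that annotation, and the antisense gene Gm16090 lies 19 bases before it.

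Most Ttr molecules came from few nuclei. Over all 60288 barcodes Ttr held 72824 UMIs, and 3031 barcodes (5.03%) held at least 1. The 302 barcodes with 10 or more Ttr UMIs carried 94.9% of them. The choroid plexus gate, which asks for at least 3 of 11 markers such as the folate receptor Folr1, the potassium channel Kcnj13 and the prolactin receptor Prlr, took in 163 barcodes and 81.6% of the Ttr UMIs.

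The wild-type library was richest in Ttr and in choroid plexus nuclei. It held 52836 Ttr UMIs, or 588 CPM, with 102 barcodes in the choroid plexus gate. The library labelled total knockout held 14886 UMIs (77.0 CPM) with 54 such barcodes. That labelled astrocyte knockout held 4498 (50.1 CPM) with 6, and that labelled neuron knockout 604 (7.40 CPM) with 1. The order of the library levels was the order of the shares of choroid plexus barcodes, which were 1.09%, 0.173%, 0.0559% and 0.0112%. These orders are not independent, since those barcodes themselves held 91.8%, 52.5%, 61.8% and 53.0% of the Ttr UMIs of their libraries. How many ventricular pieces each dissection carried was not measured.

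In wild-type choroid plexus nuclei Ttr was the most abundant symbol. Gating and all later steps used the kept nuclei unless doublets are named. The 92 nuclei kept held 44537 Ttr UMIs, 99905 CPM (interval 98979 to 100837), so that 9.99% of all their UMIs were Ttr. UMI counts are not scaled by gene length. The next symbols were Trpm3, a calcium-permeable channel, at 23926 CPM, Htr2c, the serotonin receptor 2C, at 17719 CPM, and Enpp2, which encodes the lysophospholipase autotaxin, at 10893 CPM. These 3 are choroid plexus genes that the gate did not use.

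Ttr was high in nearly every one of these nuclei. The lowest held 4 UMIs, the median 381 and the highest 4440, which is also the largest count of any symbol in any nucleus of the wild-type library. The quartiles were 287 and 542 UMIs. As a share of the UMIs of a nucleus, Ttr ranged from 0.342% to 38.9% with a median of 8.67%. Of 9 excitatory neuron markers, 78 of the 92 nuclei held none.

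The nuclei with choroid plexus markers in the library labelled total knockout were all called doublets. Of its 54 barcodes in the gate, 53 passed the filters on genes and mitochondrial RNA, and Scrublet marked each of those 53. Their doublet scores ran from 0.290, with a median of 0.294, above that library's threshold of 0.265, whereas the wild-type nuclei kept had a median score of 0.0369. The count of choroid plexus nuclei in this library is thus 0 with the doublet filter and 53 without it.

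Those 53 nuclei carried Ttr as their most abundant symbol as well. They held 7781 Ttr UMIs, 36418 CPM (interval 35613 to 37236), with a lowest nucleus of 17, a median of 106 and a highest of 994. Trpm3 (18202 CPM), Htr2c (10784 CPM) and Enpp2 (7404 CPM) followed in the wild-type order. The 11 gate markers summed to 3932 CPM against 6333 CPM in the kept wild-type nuclei, so markers and Ttr were both lower. Ttr was lower by more than the markers. For each gate marker UMI there were 9.26 Ttr UMIs, against 15.8 in the kept wild-type nuclei. The 9 excitatory markers stood at 449 CPM in the 53 nuclei, at 51.6 CPM in the kept wild-type nuclei and at 1726 CPM in the excitatory gate of the same library. Of the 53, 32 held no excitatory marker. In the wild-type library 7 of 99 gated nuclei were called doublets, with Ttr at 45857 CPM and excitatory markers at 1035 CPM. These 7 held 21.1 Ttr UMIs for each gate marker UMI.

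The other libraries held too few choroid plexus nuclei for a level. The library labelled astrocyte knockout kept 4, with 153032 Ttr CPM in sum, of which 1 nucleus had no Ttr UMI and the highest had 732. The library labelled neuron knockout kept 1, with 320 Ttr UMIs in 4301 (74401 CPM).

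**Figure D1:**
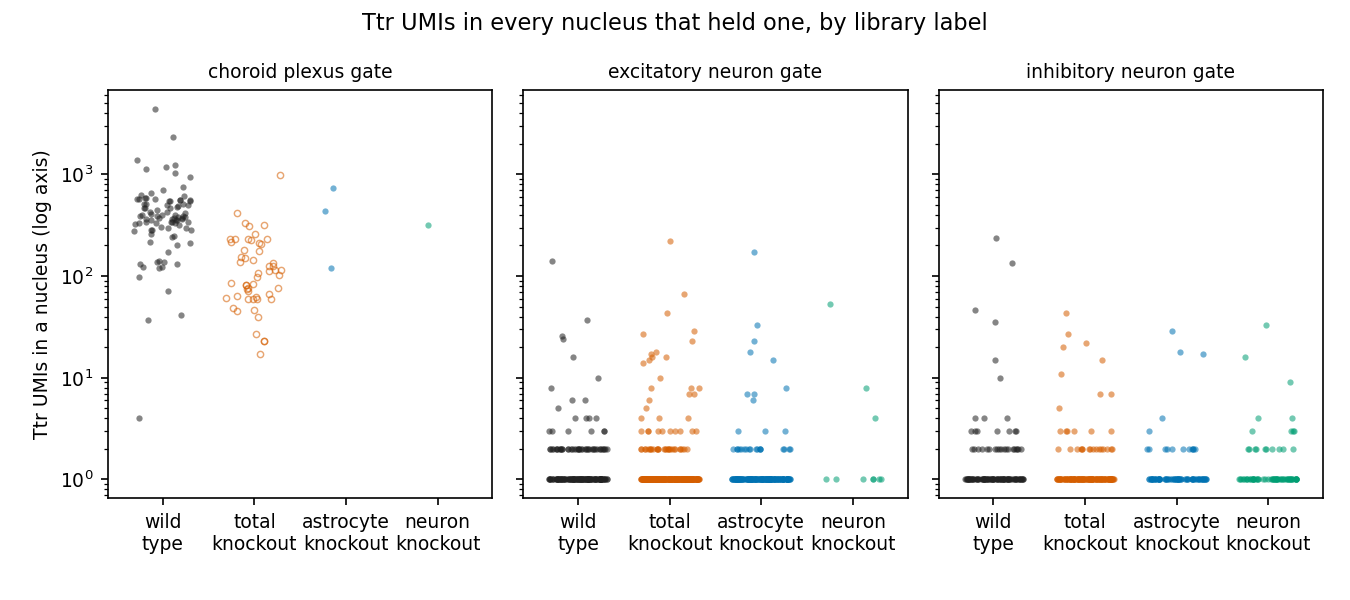
Ttr UMIs per nucleus (log axis) in every nucleus with at least 1, by library label, for the choroid plexus, excitatory and inhibitory neuron gates; open circles are the 53 nuclei called doublets in the library labelled total knockout, and nuclei at 0 are not drawn. The wild-type choroid plexus nuclei have a median of 381 UMIs, while neurons mostly hold 1 or 2 with a thin tail that reaches 236.

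Excitatory neurons held far less Ttr per UMI. In wild type 519 UMIs lay in 5537 nuclei, a level of 8.48 CPM (7.77 to 9.24). It was 12.4 CPM in that labelled total knockout (11.6 to 13.2, 11159 nuclei) and 8.61 CPM in that labelled astrocyte knockout (7.87 to 9.40, 6576 nuclei). In that labelled neuron knockout it was 1.30 CPM (1.01 to 1.63, 72 UMIs in 5538 nuclei). By counting error alone the first and the third were not apart, the second lay above both and the fourth far below all others. The UMIs were clumped in few nuclei, as given below. These intervals, and those of the ratios below, are therefore too narrow for the spread between nuclei.

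Neither description, few high nuclei or many low ones, covers the excitatory neurons alone, because both kinds were present. The median nucleus held 0 in every library. A Ttr UMI was found in 186 wild-type nuclei, 3.36% (2.90% to 3.87%), in 3.03% and 2.98% of nuclei of the libraries labelled total and astrocyte knockout, and in 10 nuclei, 0.181% (0.0866% to 0.332%), of that labelled neuron knockout. Of the 186 wild-type nuclei 125 held exactly 1 UMI and 41 held 2.

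The tail decided the sums. Only 6, 13, 5 and 1 excitatory nuclei held 10 or more Ttr UMIs in the 4 libraries, in the order used above, yet they carried 48.7%, 54.9%, 52.4% and 73.6% of the excitatory Ttr UMIs. The single highest nucleus, with 140, 223, 174 and 53 UMIs, carried 27.0%, 23.7%, 34.7% and 73.6%. The variance of the counts was 44.5, 64.3, 65.5 and 40.2 times the mean, where independent draws from 1 common level would give a value near 1. Without the 1% of nuclei with the most Ttr the levels were 2.23, 3.02, 2.26 and 0 CPM.

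Depth differed between libraries, with median UMIs per excitatory nucleus of 10044, 6187, 8007 and 9202. After each nucleus was thinned to 1000 UMIs, which left out 2, 23, 2 and 8 shallower nuclei, a Ttr UMI remained in 0.705%, 0.691%, 0.639% and 0.0542% of them. The first 3 shares had overlapping intervals (the wild-type one ran from 0.502% to 0.962%), and the fourth, from 0.0112% to 0.158%, lay below all 3. Oligodendrocyte precursors served as a cell type not known to make Ttr. By Ttr level they were the lowest of the astrocyte, oligodendrocyte, precursor and microglia gates in wild type and labelled total knockout. Microglia stood at 110 CPM (70.5 to 164, 75% of it in 1 of 31 nuclei) and at 20.2 CPM (5.50 to 51.7, 72 nuclei) there. Among the precursors of the wild-type library 1 of 291 (0.344%, median depth 3577) held a Ttr UMI. After thinning 0 of 285 did, for which 3 counts would be a share of 1.05%. In the library labelled total knockout it was 0.849% before thinning (median depth 2177) and 0.517% after (0.107% to 1.504%). At this depth the thinned share of excitatory neurons was not distinguishable from that of the precursors in either of these libraries. The unthinned levels did have separate intervals, with precursors at 0.927 CPM (0.0235 to 5.16) in wild type and at 3.69 CPM (1.20 to 8.62) labelled total knockout, each below the excitatory level of its library given above. The separation did not hold in other settings: from nuclei under 10 UMIs the excitatory levels were 4.35 and 5.59 CPM, inside the precursor intervals, and with doublets kept the intervals overlapped (precursors at 4.43 and 11.6 CPM, excitatory neurons at 9.02 and 13.5 CPM). In the library labelled astrocyte knockout the order was the other way, with 24 precursors at 334 CPM (230 to 470) and 12.5% with a Ttr UMI, although 1 nucleus held 31 of their 33 UMIs.

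Against wild type, the excitatory Ttr level was thus higher by 0.55 on the log2 scale (0.39 to 0.70) in the library labelled total knockout. It differed by 0.02 (-0.16 to 0.20) in that labelled astrocyte knockout and by -2.71 (-3.09 to -2.35), a 6.54-fold lower level, in that labelled neuron knockout. Only the last is past 2-fold, a size that 0.543% of the 16755 genes with at least 100 UMIs reached on the lower side in that comparison. Only 6 of those genes had a lower ratio there than Ttr. In the other comparisons 97.4% and 65.0% of genes had a lower ratio than Ttr. The 3 ratios share the wild-type library.

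The ratios rest on different numbers of nuclei. From nuclei with fewer than 10 Ttr UMIs alone they were 0.36, -0.08 and -3.67, the last of them lower than the -2.71 with the tail. The levels behind it were 4.35 CPM in wild type and 0.342 CPM labelled neuron knockout. For the library labelled total knockout the sign did depend on the processing: the ratio was -0.73 once nuclei were thinned to 1000 UMIs, -0.01 under a gate widened by hippocampal subtype markers, and 1.35 over male nuclei alone. For that labelled astrocyte knockout it ran from -0.78 to 0.74. For that labelled neuron knockout it stayed below 0 in every setting that gave a ratio, from -1.23 under the stricter gate to -5.24 over nuclei without a choroid plexus marker.

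**Figure D2:**
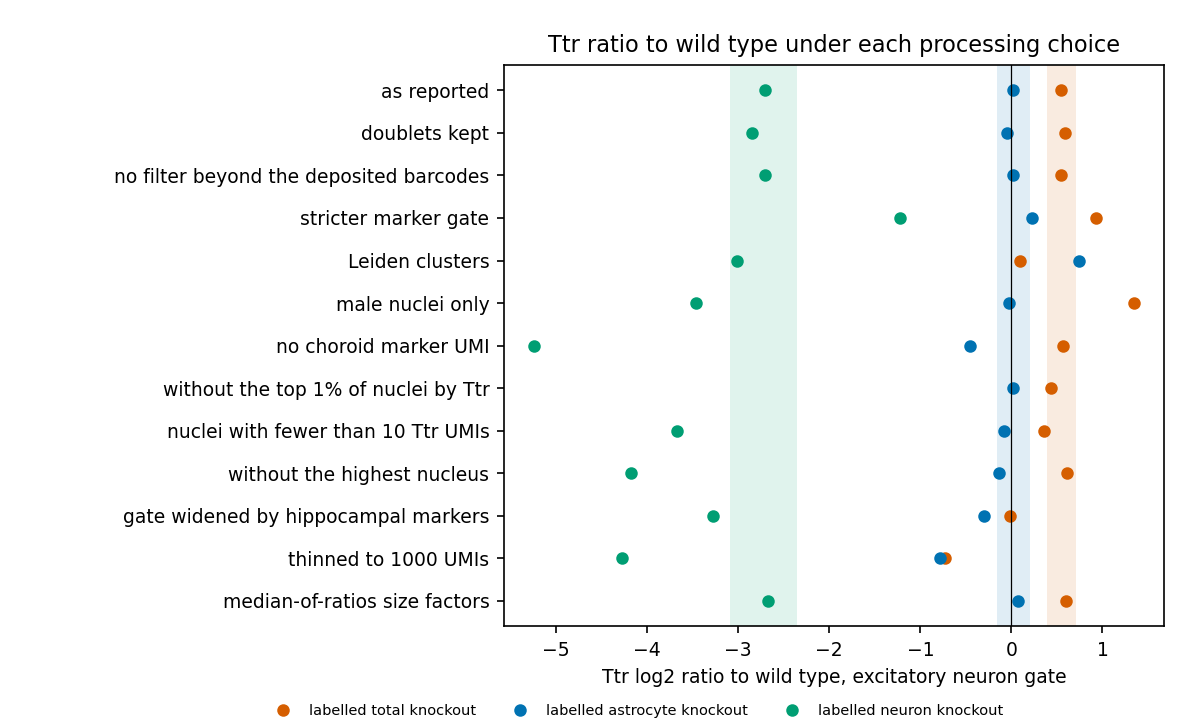
Ttr log2 ratio to wild type in the excitatory neuron gate (x axis) under each processing choice (y axis), 1 point per library; shaded bands are the 95% counting intervals of the values as reported. The points for the library labelled neuron knockout all lie between -5.24 and -1.23, while those labelled total and astrocyte knockout fall on both sides of 0.

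The 5 genes whose 3 ratios lay nearest to those of Ttr were mt-Co1, mt-Nd3, Spock1, mt-Co2 and mt-Co3. For mt-Co1, a subunit of cytochrome c oxidase, the excitatory level was 24.1, 24.3, 19.2 and 4.01 CPM in the 4 libraries. The 13 mitochondrial genes together stood at 363, 330, 229 and 63.0 CPM in excitatory and at 559, 484, 313 and 136 CPM in inhibitory neurons. In astrocytes they were highest in the library labelled neuron knockout (1280, 1363, 1893 and 3676 CPM), and in oligodendrocytes they stood at 581, 641, 414 and 631 CPM. Ttr was lowest labelled neuron knockout in both gates, but from only 3 and 5 UMIs. Its astrocyte interval (4.13 to 58.5 CPM) overlapped that labelled astrocyte knockout (13.1 to 123). From nuclei under 10 Ttr UMIs the oligodendrocyte level was 0 CPM labelled astrocyte knockout and 8.30 CPM labelled neuron knockout. Spock1, a nuclear-encoded proteoglycan gene, stood at 296, 320, 338 and 70.9 CPM. Mitochondrial RNA is not made in the nucleus, so its level in a nuclear library is a measure of RNA from outside the nucleus. Apoe, the apolipoprotein made mainly by glia, stood at 7.86, 3.02, 6.81 and 1.80 CPM in excitatory neurons, lowest in the same library as Ttr, but at 6.70, 6.08, 3.86 and 7.80 CPM in inhibitory neurons, highest in that library. The part of such RNA in the Ttr values was not tested, and no source used here says whether the authors corrected the counts for it.

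Choroid plexus markers did not follow that pattern in the sums. The 11 gate markers summed to 26.9, 25.7, 32.6 and 26.0 CPM in excitatory neurons, and 7 rarer ones (Folr1, Otx2, Tmem72, Slc4a5, Aqp1, Kcne2 and Sostdc1, singled out after their values were seen) to 1.76, 1.80, 2.04 and 1.89 CPM. Of the 11, 1 (Otx2) was at 0 in the library labelled astrocyte knockout and none in the other 3. Most of the sum was Prlr and the anti-ageing co-receptor gene Kl, which in wild-type excitatory neurons stood at 11.8 and 9.13 CPM, while Folr1 stood at 0.0490 CPM.

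Within the excitatory gate, hippocampal subtypes gave different orders of the libraries. In dentate granule neurons the levels were 8.58, 14.02, 20.9 and 0.226 CPM in the order wild type, labelled total, astrocyte and neuron knockout. In CA1 pyramidal neurons they were 4.85, 9.41, 8.10 and 0.640 CPM, and in CA2 and CA3 pyramidal neurons 3.10, 22.7, 1.61 and 0.568 CPM. The library labelled neuron knockout was lowest in each subtype, with 2, 10 and 6 Ttr UMIs in all. Excitatory neurons outside these subtypes held 312 of the 519 wild-type Ttr UMIs and stood at 13.7, 9.37, 8.68 and 2.63 CPM. There the library labelled total knockout lay below wild type, but not from nuclei under 10 UMIs (6.28 against 5.79 CPM).

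Single nuclei set several of these values. In the library labelled astrocyte knockout 1 granule nucleus with 174 UMIs carried 98.3% of the Ttr of its subtype, and only 4 of 1066 granule nuclei held any. In that labelled total knockout 1 CA2 or CA3 nucleus with 223 UMIs carried 71.2%. From nuclei under 10 UMIs the CA2 and CA3 levels were 3.10 CPM in wild type and 3.56 CPM labelled total knockout, and the granule level labelled astrocyte knockout was 0.355 CPM against 4.38 CPM in wild type.

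Inhibitory neurons as a whole held more Ttr than excitatory neurons in each of the 4 libraries. In wild type they stood at 55.9 CPM (51.7 to 60.5, 1159 nuclei), and the level was 15.7 CPM (14.1 to 17.5, 3715 nuclei) in that labelled total knockout. It was 13.8 CPM (11.8 to 16.1, 1559 nuclei) in that labelled astrocyte knockout and 10.2 CPM (8.68 to 11.96, 1587 nuclei) in that labelled neuron knockout. By counting error alone the wild-type level stood apart from the other 3, of which neighbours in this order had overlapping intervals. The variance of the wild-type counts was 121 times their mean, so its interval is too narrow for the spread between nuclei.

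The margin over excitatory neurons was wide in some libraries and narrow in others. On the log2 scale it was 2.72 (2.55 to 2.89), 0.34 (0.16 to 0.52), 0.68 (0.42 to 0.94) and 2.98 (2.57 to 3.40). From nuclei under 10 UMIs it was 1.70, 0.73, 1.06 and 4.36. Shares of inhibitory nuclei with a Ttr UMI were 10.7%, 4.36%, 5.84% and 4.85%, and after thinning 2.60%, 0.919%, 1.67% and 0.821%. The thinned share of the library labelled neuron knockout, 0.438% to 1.40%, lay above the interval of its excitatory neurons.

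Against wild type the inhibitory ratios were -1.83, -2.02 and -2.45, all past 2-fold, a size reached on the lower side by 1.36%, 0.888% and 0.982% of 13852 genes and on the higher side by 1.02%, 0.931% and 0.635%. Only 6, 4 and 1 genes had a lower ratio than Ttr. Here too the tail weighed: 6 wild-type nuclei, the highest with 236 UMIs, carried 74.8% of the inhibitory Ttr. From nuclei under 10 UMIs the ratios shrank to -0.60 (-0.91 to -0.29), -0.72 (-1.09 to -0.36) and -1.01 (-1.37 to -0.65), of which only the last is past 2-fold.

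**Figure D3:**
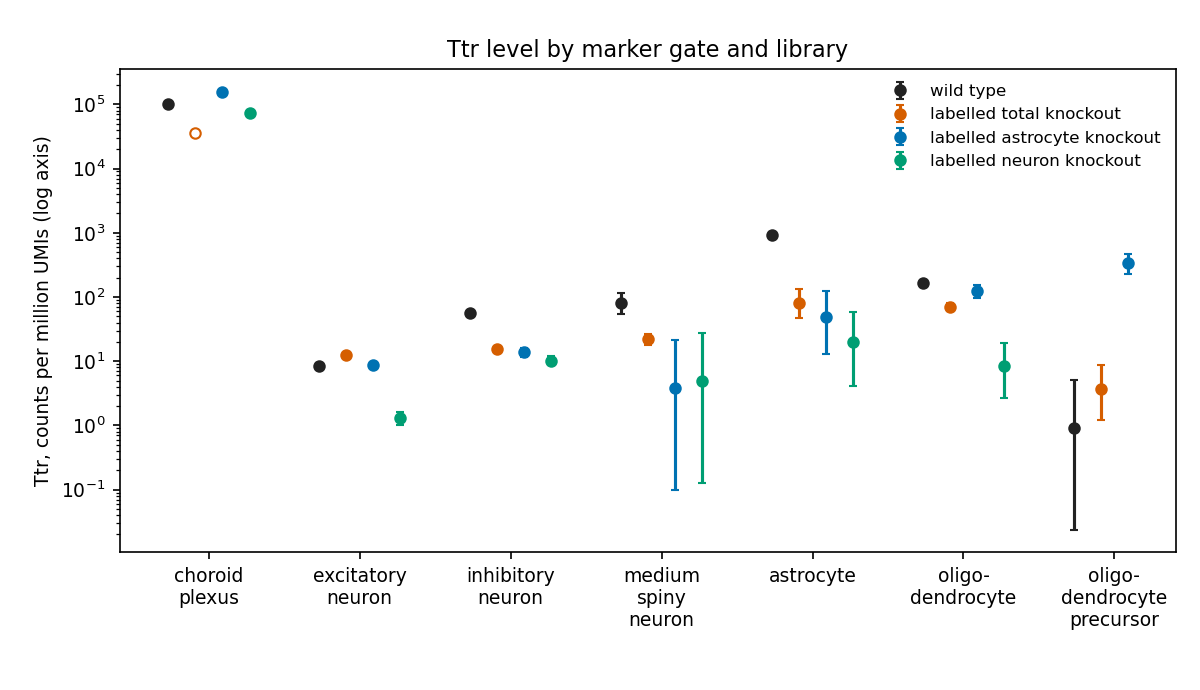
Ttr level in CPM (log axis) by marker gate and library, with 95% Poisson intervals that cover counting error only; the open circle is the sum over the 53 nuclei called doublets, and gates under 20 nuclei are left out except for the choroid plexus. The choroid plexus points lie between 36418 and 153032 CPM, and the excitatory points between 1.30 and 12.4 CPM.

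One small group of mostly inhibitory neurons had a high share of nuclei with Ttr in each library. Leiden clustering without Ttr gave 42 clusters, and in cluster 20 a Ttr UMI was found in 18 of 34 wild-type nuclei (52.9%, 35.1% to 70.2%). It was found in 83 of 380 nuclei (21.8%) labelled total knockout, 53 of 301 (17.6%) labelled astrocyte knockout and 47 of 205 (22.9%, 17.4% to 29.3%) labelled neuron knockout. Among the 28 neuronal clusters with at least 20 nuclei in each library it ranked 1, 1, 2 and 1 by this share. It was singled out for this share, which is therefore a description.

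Cluster 20 was led by Ano1, a calcium-activated chloride channel, Prdm16, a transcriptional regulator, Pld5, Zfhx3, Mob3b and the zinc finger factors Zic4 and Zic1. The GABA-synthesis gene Gad2 was found in 72.8% of its nuclei and the vesicular glutamate transporter Slc17a7 in 4.67%, and 680 of its 920 nuclei were in the inhibitory gate. It was given no cell type name.

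Cluster 23, a shallow excitatory cluster led by Igfbpl1, Gm42418 and mt-Co1 with median depths of 1332 to 1573 UMIs, ranked 4, 5, 5 and 5 by the same share (18.9%, 6.45%, 10.2% and 1.52%). Its levels of 282, 110, 559 and 15.3 CPM were above those of cluster 20 (186, 55.8, 45.8 and 39.4 CPM) in the first 3 libraries, with overlapping intervals in wild type. Its highest nuclei held 30 of 63, 39 of 64, 118 of 135 and 3 of 5 Ttr UMIs. After thinning its shares were 10.3%, 3.93%, 8.91% and 1.89%, with intervals that overlapped those of cluster 20 in each library.

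Most cluster 20 nuclei with Ttr held little of it. Of the 201 with a Ttr UMI 150 held exactly 1. The highest held 35 of 62, 15 of 128, 29 of 94 and 4 of 64 UMIs in the 4 libraries, so that single nuclei weighed most in wild type and in that labelled astrocyte knockout. After thinning to 1000 UMIs the shares with Ttr were 14.7%, 6.40%, 7.36% and 3.94%. In the library labelled neuron knockout, 43 of the 87 excitatory or inhibitory nuclei with a Ttr UMI (49.4%) were in cluster 20, which made up 2.46% of those neurons. In the wild-type library the cluster held 5.81% of such nuclei and made up 0.418% of those neurons. Without cluster 20 the inhibitory levels were 51.8, 12.1, 8.60 and 6.90 CPM, and the shares 9.45%, 2.93%, 3.73% and 2.39%. In the libraries labelled total and astrocyte knockout these levels lay within counting error of the excitatory 12.4 and 8.61 CPM. Since the cluster was singled out for its Ttr, leaving it out lowers the inhibitory values by construction.

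Cluster 20 held some of the choroid plexus markers often and others rarely. Prlr was found in 46.2% of its nuclei and the chloride channel gene Clic6 in 32.3%, against 6.74% and 0.321% of other excitatory and inhibitory neurons. Folr1 was found in 0% of the 920 nuclei, for which 3 counts would be 0.326%, against 0.0609% of the other neurons. Tmem72 was found in 0.326% against 0.227%, and Kcne2 in 0.435% against 0.249%. Otx2, a transcription factor of the choroid plexus, was found in 1.96% against 0.0664% of the other neurons, Aqp1 in 1.09% against 0.174% and Sostdc1 in 2.28% against 0.722%. Kl went the other way, with 0.870% against 5.24%. Kcnj13 (2.17% against 2.42%) and Slc4a5 (0.109% against 0.125%) were close to the other neurons. At least 1 of the 7 rarer markers was found in 6.97% (3.86% to 11.4%) of cluster 20 nuclei with Ttr and in 5.84% (4.24% to 7.81%) of those without, intervals that overlap.

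Of 24 neuronal clusters with at least 50 nuclei in each library, 9 held Ttr in all 4 libraries. Among clusters with at least 50 nuclei, 1 of 26 had no Ttr UMI in the wild-type library, 4 of 34 in that labelled total knockout, 5 of 26 in that labelled astrocyte knockout and 15 of 27 in that labelled neuron knockout. In cluster 1, led by 4921539H07Rik, Gm2115 and Gm10754, the share was 0.580%, 4.84%, 0.642% and 0.231% in the 4 libraries. In cluster 5, led by Cpne7, Gm10754 and Pde11a, it was 1.93%, 0.628%, 5.26% and 0%.

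Some clusters had intervals that did not overlap between libraries. The clusters below were picked by their values from among all of them, and the intervals cover counting error only, so they are a description. Cluster 3, led by Gpc6, Pdzrn3 and Npsr1, held Ttr in 3.98% (2.54% to 5.91%) of 578 wild-type nuclei and in 0.151% (0.0183% to 0.544%) of 1326 labelled total knockout. Cluster 10, led by the neuregulin receptor Erbb4, held it in 4.23%, 1.99% and 4.59% of nuclei in the wild-type library and in those labelled total and neuron knockout, but in 0 of 307 labelled astrocyte knockout. In the same library 0 of 221 nuclei of cluster 19 held Ttr. Apoe, chosen after its values were seen, was found there in 1 nucleus of cluster 10 and 0 of cluster 19. It was found in 10 of 161 and 8 of 145 nuclei of clusters 26 and 27, which held no Ttr there either. In cluster 3 Apoe was found in 4.33% of wild-type nuclei and in 0.603% labelled total knockout, lower together with Ttr. Labelled neuron knockout, clusters 9 and 11 held neither gene, while cluster 5 held no Ttr but Apoe in 3.32% of nuclei. The part of RNA from outside the nucleus in these steps was not tested.

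Across 24 neuronal clusters the order of the Ttr shares was little shared between libraries. Spearman's rho was 0.69 between the wild-type library and that labelled astrocyte knockout, and between -0.02 and 0.24 for the other pairs. The points share their library's depth and its choroid plexus nuclei.

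**Figure D4:**
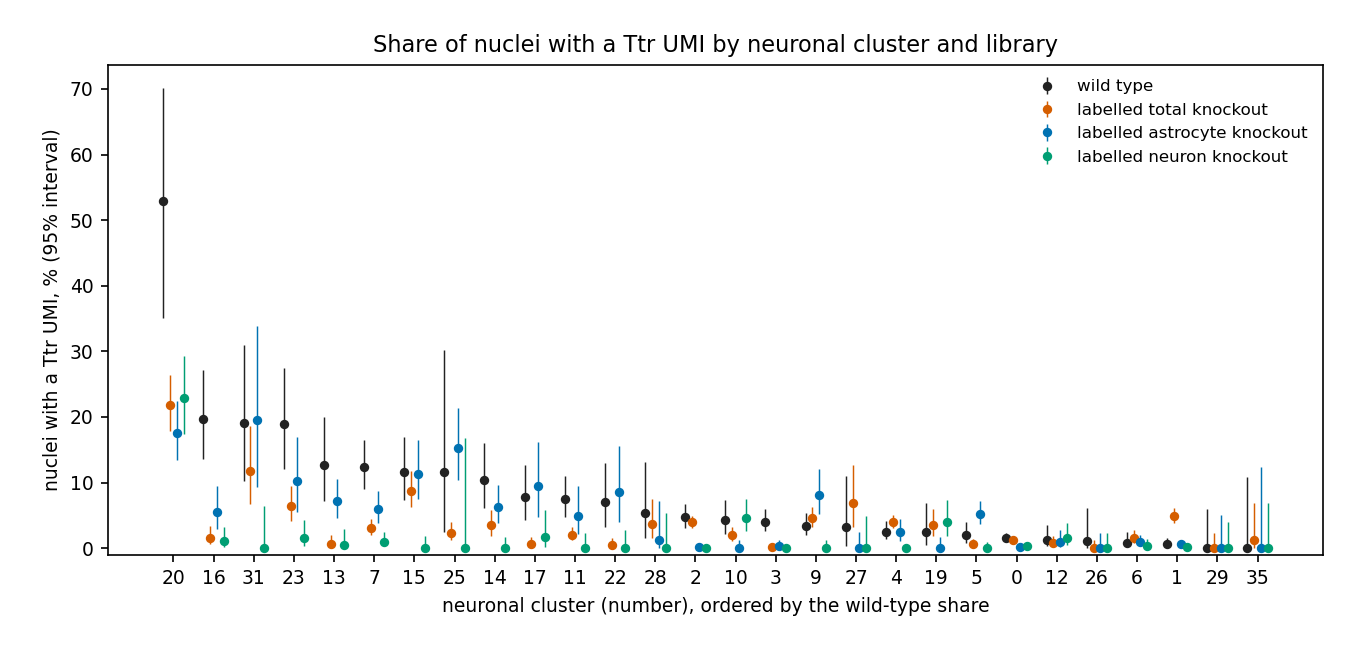
Share of nuclei with at least 1 Ttr UMI (percent, 95% Clopper-Pearson interval) in 28 neuronal clusters with at least 20 nuclei in each library, ordered by the wild-type share. Cluster 20 stands at 17.6% or more in all 4 libraries, and most other clusters lie near 0% in the library labelled neuron knockout.

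Neurons with many Ttr UMIs carried choroid plexus markers more often. Over all libraries the 11 gate markers stood at 29.1 CPM in the 35646 excitatory or inhibitory nuclei without Ttr, at 81.0 CPM with 1 Ttr UMI, at 111 CPM with 2 to 4, at 153 CPM with 5 to 9 and at 203 CPM with 10 or more. Part of this lay in cluster 20 with its Prlr and Clic6: without that cluster the values were 26.1, 43.6, 38.7, 110 and 189 CPM. Over the 4 libraries together the 7 rarer markers separated only the top class. At least 1 of them was found in 1.60%, 2.59%, 2.06% and 5.00% of nuclei with 0, 1, 2 to 4 and 5 to 9 Ttr UMIs. With 10 or more it was found in 14 of the 42 nuclei (33.3%, 19.6% to 49.5%). These were 5 of 12 in wild type, 5 of 19 labelled total and 4 of 8 labelled astrocyte knockout. Labelled neuron knockout it was 0 of 3, against 2 of 17 with 2 to 4 Ttr UMIs.

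The 42 high nuclei lay in all 4 libraries, 12, 19, 8 and 3 in the order above, of which 6, 13, 5 and 1 were excitatory. The choroid plexus markers were all at 0 in 4, 11, 1 and 2 of them. They held up to 236, 223, 174 and 53 Ttr UMIs. Their median doublet scores were 0.0560, 0.108, 0.0628 and 0.0197, which the removal of doublets keeps under each threshold, against medians of 0.0290, 0.0994, 0.0310 and 0.0303 in the other neurons. The part of choroid plexus RNA in these nuclei was not tested.

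**Figure D5:**
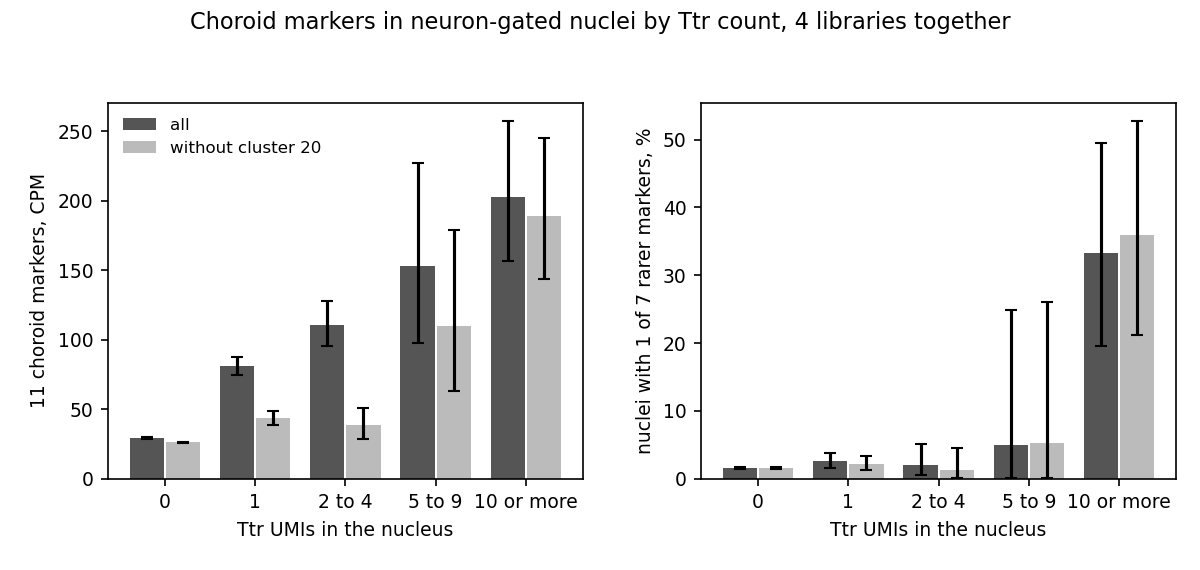
Level of the 11 choroid plexus gate markers (left, CPM with 95% Poisson intervals) and share of nuclei with at least 1 of 7 rarer markers (right, percent with 95% Clopper-Pearson intervals) in excitatory and inhibitory nuclei of the 4 libraries together, by Ttr UMIs in the nucleus; dark bars are all nuclei and light bars those outside cluster 20. In the dark bars the right-hand share stays at or below 5.00% up to 9 Ttr UMIs and is 33.3% at 10 or more. In the light bars it is 5.26% at 5 to 9 and 35.9% at 10 or more.

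Ttr and the rarer markers did not stand in 1 ratio across gates. Wild-type choroid plexus nuclei held 37.3 Ttr UMIs (35.2 to 39.5) for each UMI of the 7 rarer markers. Oligodendrocytes held 24.3 (13.7 to 47.6), 21.7 and 22.3 in the first 3 libraries and 1.25 (0.269 to 6.30) in that labelled neuron knockout. In wild type 1 oligodendrocyte held 259 of the 292 Ttr UMIs, and labelled astrocyte knockout 1 held all 67. Excitatory neurons held 4.81 (3.90 to 5.97), 6.87, 4.22 and 0.686, and inhibitory neurons 14.4 (10.6 to 20.1), 4.28, 4.42 and 3.39. All the excitatory and inhibitory intervals lay below that of the wild-type choroid plexus. Those of the medium spiny gate in wild type (29.0, 4.81 to 1184) and labelled total knockout (15.1, 7.10 to 38.6), from 1 and 7 marker UMIs, overlapped it. That of wild-type astrocytes (68.3, 26.4 to 252), from 4 marker UMIs, overlapped it too. In excitatory neurons Sostdc1 gave 57 of 108, 61 of 137, 65 of 119 and 55 of 105 marker UMIs in the 4 libraries. The ratio therefore rests largely on 1 marker there.

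In several glial and vascular gates 1 nucleus carried most of the Ttr. Wild-type astrocytes stood at 915 CPM, but 1 of 100 nuclei, with 240 UMIs, carried 87.9% of it and 90 held none. Astrocytes of the other libraries stood at 81.4, 47.9 and 20.0 CPM. In that labelled total knockout the Ttr was spread out, with a UMI in 15 of 99 astrocytes (15.2%, 8.74% to 23.8%) and at most 2 in any. In oligodendrocytes the levels were 162, 69.0, 123 and 8.30 CPM, and 1 nucleus carried 88.7% of the wild-type value and 1 all 67 UMIs of that labelled astrocyte knockout. The 14 wild-type endothelial nuclei stood at 5199 CPM, 92.6% of it from 1 nucleus. Precursors of oligodendrocytes held 1, 5, 33 and 0 Ttr UMIs. The 33 UMIs made a level above the astrocytes and oligodendrocytes of that library.

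The gate for medium spiny neurons, which belong to the striatum and not to the hippocampus, held Ttr at 81.8 CPM in 44 wild-type nuclei and at 21.8 CPM in 931 labelled total knockout. The shares of nuclei with Ttr were 29.5% (16.8% to 45.2%) and 6.02% (4.58% to 7.74%). The libraries labelled astrocyte and neuron knockout held 36 and 26 nuclei in this gate with 1 Ttr UMI each. Those nuclei held a median of 3 of 10 markers, and 0% and 3.85% of them lay in clusters of that name, against 6 markers and 70.5% and 77.2% in the first pair of libraries, so they are named here by the gate only.

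Female and male nuclei come from different animals of the same library. In wild-type excitatory neurons Ttr stood at 7.26 CPM (6.33 to 8.30) in 2642 female and at 4.83 CPM (4.02 to 5.75) in 2401 male nuclei, with shares of 4.05% and 2.25%. The 494 nuclei without a sex call stood at 33.3 CPM, of which 140 of 176 UMIs lay in 1 nucleus. From nuclei under 10 UMIs the levels were 4.90 CPM in female, 3.20 CPM in male and 6.80 CPM in uncalled nuclei. In wild-type inhibitory neurons the order of the sexes was the other way, 43.8 CPM in female and 75.1 CPM in male nuclei, with overlapping shares of 10.9% and 9.21%. That order rests on the tail, since 1 male nucleus held 236 of 338 UMIs and nuclei under 10 UMIs gave 14.2 CPM in female and 11.5 CPM in male nuclei. In excitatory neurons of the library labelled astrocyte knockout the levels were 13.04 CPM in female and 4.75 CPM in male nuclei, but 1 female nucleus held 174 of 315 UMIs. From nuclei under 10 UMIs the order turned, with 3.73 CPM in female and 4.15 CPM in male nuclei, and the shares, 2.77% and 3.00%, had overlapping intervals. In that labelled neuron knockout 4 of 2204 female and 5 of 2722 male excitatory nuclei held Ttr. Wild-type choroid plexus nuclei of either sex were alike in their medians, 371 UMIs over 41 female and 397 over 43 male nuclei. Animals within a sex could not be separated.

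The 10 genes whose levels most resembled those of Ttr were ranked by correlation. Over 27 sums of 1 cell type in 1 library with at least 20 nuclei, Pearson's r on log2(CPM + 1) was highest for Folr1 (0.83), followed by the growth factor Igf2 (0.81), the coagulation factor gene F5 (0.80), Eps8l2, Smdt1, Wdr72, Gm29266, Polr1a, the collagen gene Col8a2 and the glutathione peroxidase gene Gpx4 (0.75). The sums share libraries and depth, and Folr1 is a marker of the choroid plexus gate, so its level in that sum is set in part by the gate. Without the wild-type choroid plexus sum r for Folr1 was 0.60, for Smdt1, a subunit of the mitochondrial calcium uniporter, 0.66 and for Col8a2 0.35. Folr1 stood at 426 CPM in that sum and at most at 20.3 CPM elsewhere. The excitatory sums of the 4 libraries held only 3, 5, 6 and 3 Folr1 UMIs. Its r of 0.60 therefore rests on few counts.

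A list of other choroid plexus genes was followed in excitatory neurons. Of 16 measured genes of a choroid plexus list not used in the gate, all 16 were at least 2-fold higher in wild-type choroid plexus than in wild-type excitatory neurons. Of the 9 with at least 100 UMIs in excitatory neurons, 0 were past 2-fold from wild type in any library, with median log2 ratios of -0.13, -0.28 and -0.22 for the libraries labelled total, astrocyte and neuron knockout, against -0.04, -0.06 and -0.02 over all genes tested. Past 2-fold lay 0.579%, 0.292% and 0.304% of all genes on the higher side and 1.56%, 1.01% and 0.543% on the lower side. Enpp2 stood at 27.9, 27.5, 21.9 and 23.9 CPM there. The other 7 genes had too few UMIs to be among the 9, and their ratios in the library labelled neuron knockout ran from -1.67 for Msx1 to 0.14 for Igf2.

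Genes that handle the cargo of transthyretin were described as lists. Of 17 tested genes of thyroid hormone transport, deiodination and signalling, 0 were past 2-fold in excitatory neurons of any library (medians 0.02, -0.00 and 0.00). Over all genes tested there, at most 0.579% were past 2-fold higher and at most 1.56% lower, so 0 is near those shares. In wild-type choroid plexus the thyroid hormone transporter Slco1c1 was high (677 CPM), against 0.376 CPM in wild-type excitatory neurons, while the receptor Thrb stood at 386 CPM (330 to 448) and 316 CPM. Of 11 tested retinol and retinoid genes 0 were past 2-fold in excitatory neurons (medians -0.03, 0.04 and -0.00), also near those shares. Rbp4, the plasma carrier that binds transthyretin, held 0 UMIs in the 92 choroid plexus nuclei (interval up to 8.27 CPM). The lists were drawn up with earlier results of these data known.

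The 9 genes of the amyloid precursor and its carriers were compared in excitatory neurons too. The insulin-degrading enzyme gene Ide was past 2-fold higher in the libraries labelled total and neuron knockout (log2 ratios 1.09 and 1.03). It was at 0.73 in that labelled astrocyte knockout. Apoe was past 2-fold lower in the same pair of libraries, at -1.38 and -2.12, and at -0.21 in that labelled astrocyte knockout. In that pair of libraries 0.579% and 0.304% of all genes were past 2-fold higher, and 1.56% and 0.543% lower. The list's medians were 0.02, -0.06 and -0.07. Of 5 tested transcription factors named as regulators of Ttr, 0 were past 2-fold in excitatory neurons of any library, as for most genes. Otx2, the choroid plexus factor, stood at 339 CPM in wild-type choroid plexus and at 0.0327 CPM in wild-type excitatory neurons, too low to be among the 5.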

How the data were processed

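Nuclei had been isolated from hippocampus and run on a droplet kit for joint RNA and chromatin profiling, and the RNA matrices were used here. Raw counts of UMIs for each gene in each barcode were deposited by the authors, made with Cell Ranger ARC 2.0.0 against mm10 per the submitters' processing notes. No source used here names filters or a correction for ambient RNA before deposit.

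Ttr, its gene lists and the marker lists were chosen with earlier results of these data known. Barcodes with at least 500 genes and at most 5% mitochondrial UMIs were kept, and doublets called per library with Scrublet through scanpy 1.11.5 were removed. A nucleus entered a cell type when it held at least 3 of its markers, the highest share of markers, and no other lineage reached 75% of that share. Excitatory subtypes needed a lead of 0.25 in mean z score. Nuclei with at least 2 Xist UMIs were called female and those with a Y-linked UMI male, where only 1 kind was seen. Leiden clusters (leidenalg 0.10.2, resolution 1) left out Ttr.

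UMIs were summed per library and gate and scaled to CPM. With 1 library a genotype no test across libraries was possible. Named genes were Ttr, the 10 genes most correlated with it, the 5 with the nearest ratios, and members of the lists described. Ratios for the place of Ttr among genes used a pseudocount of 1 and genes with at least 100 UMIs. The ratios and their intervals were tested on simulated Poisson counts. Such counts lack the spread of Ttr between nuclei, so the test cannot show that the intervals hold for Ttr. Alternatives covered doublets, filters, gates, sex, marker-free nuclei, high nuclei, thinning and scaling. No Ttr sequence is shown, and some genes of the lists are not reported here.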

Additional observations from a re-analysis of the deposited data

How the results depend on the processing

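No paired analysis was possible because each genotype is 1 library and the labels carry no replicate numbers. Of the values recomputed under an alternative, 76 stayed within the counting interval of the reported value (for numbers of choroid plexus nuclei, within 1.5 times of it) and 71 moved further; the cause was not tested. Excitatory Ttr levels follow in the order wild type, total, astrocyte and neuron knockout, all by label (as reported 8.48, 12.4, 8.61 and 1.30 CPM). The stricter gate gave 4.63, 8.83, 5.43 and 1.98 CPM, and nuclei without a choroid plexus marker 5.16, 7.61, 3.77 and 0.136 CPM. Without the top 1% of nuclei the levels were 2.23, 3.02, 2.26 and 0 CPM, so no ratio could be had for the last. Leiden clusters moved the first 3 to 9.99, 10.7 and 16.7 CPM, male nuclei alone moved wild type, astrocyte and neuron knockout to 4.83, 4.75 and 0.439 CPM, and keeping doublets moved total knockout to 13.5 CPM. Of alternatives chosen after seeing the data, nuclei with fewer than 10 Ttr UMIs gave 4.35, 5.59, 4.10 and 0.342 CPM, leaving out the highest nucleus 6.19, 9.46, 5.63 and 0.342 CPM, and the widened gate 12.7 CPM in wild type and 10.4 CPM in astrocyte knockout. The log2 ratio of total knockout moved to 0.93 (stricter gate), 0.10 (Leiden), 1.35 (male), 0.36 (fewer than 10 UMIs), -0.012 (widened gate) and -0.73 (thinned). That of astrocyte knockout moved to 0.23 (stricter), 0.74 (Leiden), -0.45 (no marker), -0.30 (widened) and -0.78 (thinned). That of neuron knockout moved to -1.23 (stricter), -3.46 (male), -5.24 (no marker), -3.67 (fewer than 10 UMIs), -4.18 (without the highest nucleus), -3.28 (widened) and -4.27 (thinned). The wild-type choroid plexus level of 99905 CPM became 91833 with doublets, 100837 under the stricter gate, 95607 by Leiden clusters and 103920 in males. That of astrocyte knockout became 199412 without filters, 185233 (stricter), 104025 (Leiden) and 209923 (male), and that of neuron knockout 38657 (Leiden). Choroid plexus nuclei numbered 43, 2 and 0 in males of wild type, astrocyte and neuron knockout, 53 in total knockout with doublets, and 4 and 3 by Leiden clusters in total and neuron knockout. Thinned to 2000 UMIs, the excitatory shares of the first 3 libraries were 1.13%, 1.28% and 0.932%, the wild-type share was 0.968% by Leiden clusters, and that of neuron knockout was 0% without marker-positive nuclei. With genes of at least 20 UMIs, and with no minimum, 95.4% and 94.9% of genes had a lower ratio than Ttr in total knockout, and 64.2% and 63.8% in astrocyte knockout. In the library labelled neuron knockout 72 excitatory Ttr UMIs limit every value.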

Other observations

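Nuclei that entered no gate also held Ttr. Their levels were 228 CPM in 1229 wild-type nuclei, 24.5 CPM in 5478 labelled total knockout, 70.6 CPM in 1704 labelled astrocyte knockout and 1.09 CPM in 1317 labelled neuron knockout. Of these nuclei 15, 8, 5 and 0 held 10 or more Ttr UMIs, with highest counts of 277, 75, 317 and 3. With doublets kept the level labelled total knockout was 127 CPM, with 35 nuclei at 10 or more, above the 70.9 CPM labelled astrocyte knockout. As in the gated neurons, the library labelled neuron knockout was lowest.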
